A study of Mus musculus with 3 samples.

Results

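The genes described here are 9 transcription factors that mark the body region in which muscle progenitors arise, namely Pitx1, Pitx3, Tbx1, Tbx4, Tbx5, Lbx1, Msc, Tcf21 and Meox2. They were picked by name, by a rule that uses no measured value but was set with earlier results of these data known, from 35562 genes measured in 3 RNA-seq libraries. The libraries came from FACS-purified myoblast lines 66, 67 and 72, the cultured progeny of Pax7-nGFP+ satellite cells, which are the resident stem cells of skeletal muscle. All lines descend from 1 corrected clone of male Dmdmdx; Pax7-nGFP iPSCs. These iPSCs carried the mdx mutation of dystrophin, a nuclear GFP under control of Pax7, the satellite cell gene, and a CRISPR/Cas9 edit that skips the mutated exon. The clone was injected into mouse blastocysts carrying Pax7-CreERT2 and Rosa26-lsl-DTA, in which tamoxifen removes the host's own Pax7+ cells, and satellite cells were sorted from skeletal muscles of the chimeras. The labels give neither the tamoxifen treatment, the age of the chimera nor the muscle of origin of any line. The 3 lines thus form 1 condition with n = 3 and 1 library each, and the study's comparison myoblasts and fibroblasts are not analysed here.

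Muscles of the trunk and limbs come from the somites, whereas many head muscles come from cranial mesoderm. Lbx1 marks the progenitors that migrate from the somites into the limbs, and Meox2 acts in somites and in limb muscle. Tbx1, Msc (also called MyoR) and Tcf21 (capsulin) act in the branchiomeric muscles of the jaw and face, upstream of Myf5 and Myod1. Pitx1 and Tbx4 specify the hindlimb and Tbx5 the forelimb, mostly in the mesenchyme of the limb bud. Pitx3 is a paired-type homeodomain factor that is switched on as myoblasts differentiate.

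Promoter sequence is shown for the 3 factors with a mean of 1 TPM or more that had a window at or next to the first base of their main transcript, together with Meox2, which has a single transcript and was low. The RefSeq promoter table (GRCm38.p6) held 6 windows for 5 of the 9 genes (Meox2, Pitx3, Tbx1, Tbx4 and Tcf21). The 250 bases before the start are given for 4 windows, on the coding strand. Capitals mark E-boxes (CANNTG, bound by myogenic bHLH factors, which includes the form CAGCTG) and matches to TATAAA, both on either strand.
Pitx3-201, chr19:46148326-46148575, minus strand: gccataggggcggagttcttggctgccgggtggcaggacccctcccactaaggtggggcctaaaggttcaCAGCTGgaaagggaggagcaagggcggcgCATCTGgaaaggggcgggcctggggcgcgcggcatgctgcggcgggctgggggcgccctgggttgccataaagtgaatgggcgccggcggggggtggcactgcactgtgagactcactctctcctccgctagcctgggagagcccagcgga
Tbx1-201, chr16:18590672-18590921, minus strand: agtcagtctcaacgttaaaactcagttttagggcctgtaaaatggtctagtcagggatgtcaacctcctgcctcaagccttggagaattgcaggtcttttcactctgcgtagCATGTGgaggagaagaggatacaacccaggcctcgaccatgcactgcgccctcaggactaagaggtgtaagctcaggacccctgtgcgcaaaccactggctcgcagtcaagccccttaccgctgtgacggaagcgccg
Tbx4-202, chr11:85896515-85896764, plus strand: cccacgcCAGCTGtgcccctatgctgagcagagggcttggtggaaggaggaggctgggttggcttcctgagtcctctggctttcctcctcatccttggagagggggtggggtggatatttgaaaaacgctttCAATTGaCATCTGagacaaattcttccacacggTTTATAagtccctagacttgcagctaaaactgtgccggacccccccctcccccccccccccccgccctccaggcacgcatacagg
Meox2-201, chr12:37108290-37108539, plus strand: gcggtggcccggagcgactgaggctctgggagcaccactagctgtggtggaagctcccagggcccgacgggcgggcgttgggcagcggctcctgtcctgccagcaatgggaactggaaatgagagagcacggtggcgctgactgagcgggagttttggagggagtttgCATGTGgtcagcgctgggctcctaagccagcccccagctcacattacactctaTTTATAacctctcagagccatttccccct
The CAGCTG form began 180 bases before the start in Pitx3 and 243 bases before it in Tbx4, and 13.0% of all 32851 windows of this length hold it. Any CANNTG was found in 4 of the 6 windows of these genes (66.7%), the 4 printed, and in 66.2% of all windows. A TATAAA match began 29 bases before the start of Meox2 and 85 bases before that of Tbx4, against 12.4% of all windows with a match at any place. The letters TAATCC, which PITX-type homeodomains bind, and TCACACCT, a T-box half-site, were in none of the 6 windows of these genes and in 6.25% and 1.12% of all windows. The RefSeq start of Pitx3 lies 1 base from the first base of Pitx3-201, and the other 3 coincide with the first base of the transcript named. These matches are letters in the window, and no binding was measured.

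Of the 9 factors, Pitx3 and Lbx1 were present in every line, Tbx1 and Tbx4 were low and differed between lines, and the other 5 were below 1 TPM in every line, with Tbx5, Tcf21 and Pitx1 at 3.48 counts or fewer. Levels are in TPM, the share of a transcript among all transcripts of a library after correction for length, scaled to a total of 1000000, so that genes can be set side by side. At least 1 TPM in every line was reached by 2 of the 9 (Pitx3 and Lbx1), where 33.8% of all genes reached it. A mean of at least 1 TPM was reached by 4 of the 9, and by 12528 of all 35562 genes. In this bulk RNA, fewer cells that express a gene and less RNA per cell cannot be told apart.

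**Figure D1:**
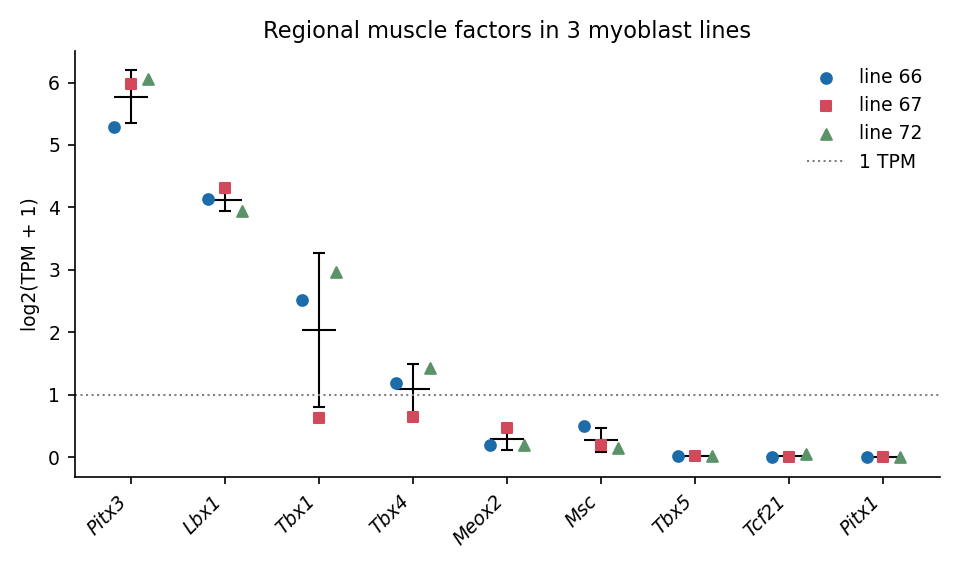
Level of each factor, as log2(TPM + 1), in lines 66 (circles), 67 (squares) and 72 (triangles). Black bars are the mean and SD over the 3 lines, and the dotted line is 1 TPM, which Pitx3 and Lbx1 pass in every line and Tbx1 and Tbx4 in lines 66 and 72.

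Pitx3 (chromosome 19, 46135685 to 46148326, GRCm38) was the most abundant, at 38.1, 62.0 and 65.7 TPM in lines 66, 67 and 72, or 55.3 ± 15 TPM (SD, n = 3). These values rest on 1795, 2787 and 2735 estimated counts. Line 66 was the lowest, and the mean lay above that of 88.2% of the 25510 detected genes. In CPM, in which each library sums to 1000000 without correction for length, line 67 was 1.70-fold above line 66 (95% interval 1.60 to 1.80, which like all such intervals here covers counting error only). Lines 67 and 72 were close, at 1.07-fold (1.01 to 1.13).

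The TPM of Pitx3 depends on how its reads were divided between transcripts. The full transcript, Pitx3-201 (1380 bases), carried 92.6%, 93.2% and 91.6% of the counts but 52.9%, 54.5% and 48.7% of the TPM. The remainder of the TPM came mostly from Pitx3-202, a transcript of 326 bases whose first base lies 7343 bases downstream of that of Pitx3-201. It held 117, 168 and 211 counts, which the division by a short effective length turned into 16.6, 26.2 and 32.0 TPM, and 42 of its 296 words of 31 bases occur in no other listed transcript. With every count placed on Pitx3-201, an alternative chosen after seeing the data, the gene was at 21.8, 36.3 and 34.9 TPM (31 ± 8.01), which still lay above Lbx1 in every line. In CPM, without correction for length, Lbx1 was the higher in line 66 (34.6 against 24.5) and the means were 35.01 for Pitx3 and 34.8 for Lbx1.

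**Figure D2:**
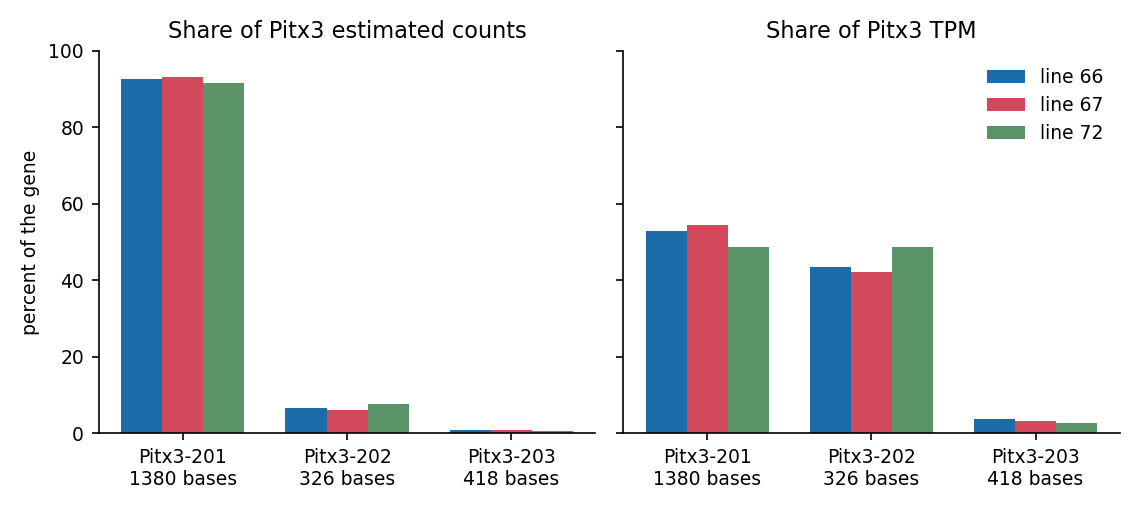
Share of the estimated counts (left) and of the TPM (right) of Pitx3 held by each of its 3 transcripts, in percent of the gene, with 1 bar per line. Pitx3-201 holds over 90% of the counts in every line, and Pitx3-202, of 326 bases, between 42.2% and 48.6% of the TPM.

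Pitx1, the hindlimb member of this family, had 0 counts on both of its transcripts in all 3 lines. At these depths 0 counts leave room for at most 3, which is 0.0276, 0.0303 and 0.0295 TPM on Pitx1-201 in lines 66, 67 and 72. With all Pitx3 counts placed on Pitx3-201, Pitx3 lay about 790-fold above the limit of 3 counts in line 66 and about 1185-fold above it in line 72. These ratios would be smaller with the upper end of the interval.

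Lbx1, the factor of migrating limb progenitors (chromosome 19, 45232684 to 45235812), was at 16.5, 18.7 and 14.4 TPM, or 16.5 ± 2.18 TPM (SD, n = 3). It has 1 listed transcript of 2 exons, all of its 31-base words are found in no other listed transcript, and its 2536, 2680 and 2088 counts were whole numbers. The highest line, 67, lay 1.35-fold above the lowest, 72, in CPM (1.27 to 1.43). Of the 4 factors with a mean of at least 1 TPM, Lbx1 varied least between lines, with an SD of log2(TPM + 1) of 0.18, where the median over 12528 genes was 0.14. The TPM ranges of Pitx3 and Lbx1 did not overlap, whereas their CPM ranges did (24.5 to 41.6 and 29.7 to 40.02). The TPM ranges of Lbx1 and Tbx1 did not overlap.

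Tbx1, a T-box factor of the branchiomeric muscles that lies in the region deleted in 22q11 syndrome (mouse chromosome 16, 18580979 to 18590671), was at 4.70, 0.546 and 6.82 TPM in lines 66, 67 and 72. The counts were 484, 51 and 669. Line 67 stood far below the other lines, and lines 66 and 72 differed by 1.44-fold in CPM (1.28 to 1.62). Line 66 was 8.67-fold (6.49 to 11.8) and line 72 12.5-fold (9.40 to 17.0) above line 67. The SD of log2(TPM + 1) was 1.24, above that of 99.6% of the 12528 genes compared.

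All 5 transcripts of Tbx1 were lower in line 67 than in the other lines. Tbx1-201, whose first base is the RefSeq start printed above, held 3.33, 0.394 and 4.45 TPM, or 70.9%, 72.2% and 65.2% of the gene. Tbx1-202 and Tbx1-203 begin together 3702 bases further downstream and held 0.527, 0.127 and 1.23 TPM and 0.357, 0 and 0.607 TPM. The transcript Tbx1-204, annotated as a retained intron, held 40.2, 3.25 and 54.4 counts. Only 40 of the 1828 words of Tbx1-201 occur in no other listed transcript, so the split between transcripts is less certain than the level of the gene.

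Differences between lines were called at over 2-fold in log2(TPM + 1) among 12528 genes averaging 1 TPM or more, without a test, since each line is 1 library. Of the 4 factors compared, 1 (Tbx1) was called, between lines 66 and 67 and between lines 67 and 72. Of all genes compared, 2.11% were called between lines 66 and 67, 2.18% between 66 and 72 and 1.73% between 67 and 72. Tbx1 was also over 2-fold lower in line 67 than in both other lines, as were 0.383% of the genes compared (48 genes). Ranked by the difference between line 67 and the lower of the other lines, Tbx1 came 3rd of the 12528. The calls rest on line 67, and without it no factor was called.

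**Figure D3:**
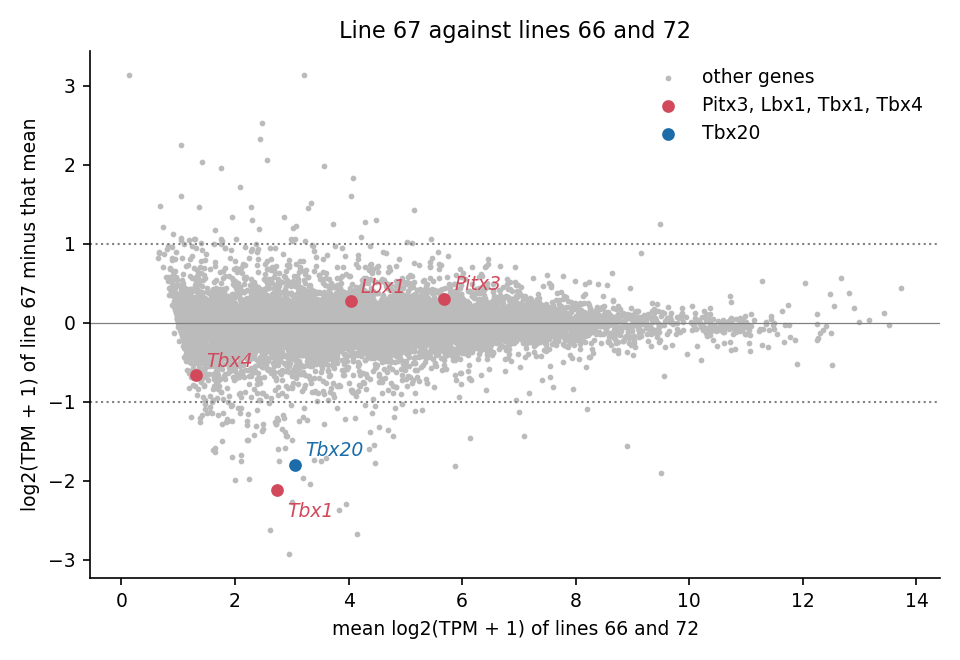
Difference in log2(TPM + 1) between line 67 and the mean of lines 66 and 72 (vertical axis) against that mean (horizontal axis) for 12528 genes, with the 4 factors in red and Tbx20 in blue. Dotted lines mark a 2-fold difference. Tbx1 and Tbx20 lie below the lower dotted line, whereas Pitx3 and Lbx1 lie slightly above 0.

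Tbx20, a T-box factor known mainly from the heart, was also over 2-fold lower in line 67 than in both other lines, at 7.50, 1.38 and 7.09 TPM. Isl1, a factor of second heart field and pharyngeal progenitors, was at 0.672, 1.60 and 1.66 TPM, with line 66 the lowest. Tbx1 and Isl1, both linked to the head, thus differed in which line was lowest. Nkx2-5, also among the head genes, was at 0 in every line.

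Tbx4, the hindlimb T-box factor, was at 1.28, 0.564 and 1.70 TPM, or 1.18 ± 0.574 TPM (SD, n = 3), from 186, 75 and 234 counts. Line 67 was again the lowest, and line 72 lay 2.97-fold (2.28 to 3.91) and line 66 2.27-fold (1.72 to 3.005) above it in CPM. On the log2(TPM + 1) scale these differences were 0.79 and 0.55 and were not called. With a pseudocount of 0.1 both were called, and on CPM the difference between lines 67 and 72 alone. The median gene of chromosome 11, which carries Tbx4, was shifted by 0.32 in line 66, by -0.18 in line 67 and by -0.13 in line 72 on the log2 scale relative to the mean of the other lines (699 genes), and the part of this shift in the Tbx4 values was not tested.

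Every Tbx4 count fell on Tbx4-202, the transcript of 7 exons whose first base, on chromosome 11 at 85896765, is the RefSeq start printed above. The transcripts Tbx4-201 and Tbx4-203 begin 6702 and 10343 bases upstream and were at 0 in every line. They differ from Tbx4-202 in their first exons, and 439 words of 31 bases occur in Tbx4-201 or Tbx4-203 but not in Tbx4-202. The first exon of Tbx4-202 gives it 243 words that neither of the others holds. The counts on Tbx4-202 were 186 and 75 in lines 66 and 67 and 234.188 in line 72, whole except in line 72.

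**Figure D4:**
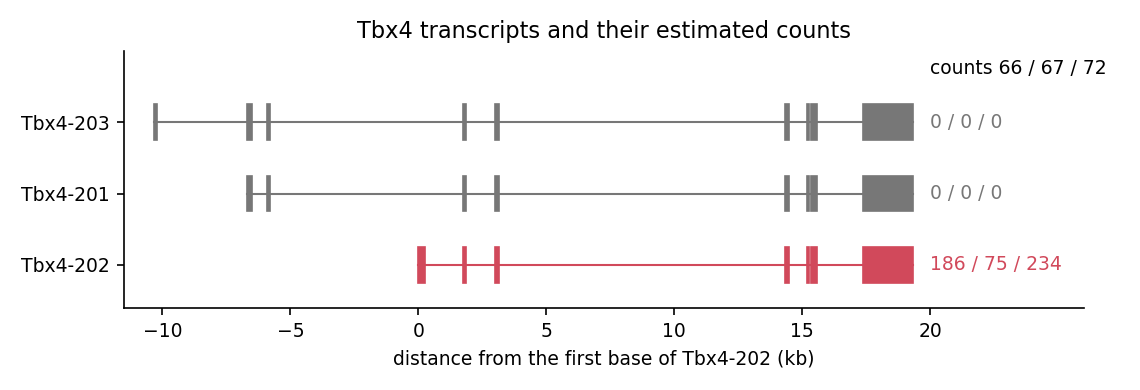
Exons (boxes) and introns (lines) of the 3 listed Tbx4 transcripts by distance in kb from the first base of Tbx4-202, with the estimated counts of lines 66, 67 and 72 at the right. All counts (186, 75 and 234) are on Tbx4-202, drawn in red, and none on the transcripts that begin upstream.

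Tbx5, the forelimb counterpart of Tbx4, had 3.48, 3.02 and 2.01 counts in lines 66, 67 and 72, or between 0.00986 and 0.0164 TPM. These counts are at the limit of 3 counts used for a count of 0, and in line 66 they lay 0.481 from a whole number. Of the words of Tbx5-201, which held all of these counts, 97.7% occur in no other gene. Tbx4 lay above Tbx5 in 3 of 3 lines, by 1.07 ± 0.41 in log2(TPM + 1) (SD, n = 3, exact two-sided sign-flip test, p = 0.25, which is the smallest p that 3 lines can give). The same exact test gave p = 0.25 for Pitx3 above Pitx1 (5.78 ± 0.42) and for Msc above Tcf21 (0.26 ± 0.21), each in 3 of 3 lines, and Benjamini-Hochberg adjustment over the 3 pairs left 0.25. With Pitx1 at 0 counts in every line, the difference from Pitx3 could not be negative. The outcome for that pair was thus fixed in advance and adds nothing to the levels given above. In line 72 Msc and Tcf21 rested on 3 and 3.20 counts, and in CPM Tcf21 was the higher there (0.0455 against 0.0427).

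Msc, a bHLH repressor of myogenesis that acts with Tcf21 in jaw muscle, reached 0.415 TPM in line 66, 0.144 in line 67 and 0.106 in line 72. In line 66 its 22 counts were spread over 4 transcripts, of which Msc-202 and Msc-203, annotated as retained introns, held 3.84 and 4 counts. In lines 67 and 72 all counts, 4 and 3, fell on Msc-204. In CPM, line 66 was 5.03-fold above line 67, with an interval from 1.71 to 20.1. Tcf21 had 0 counts in lines 66 and 67 and 3.20 in line 72, and its antisense neighbour Gm10824 had none. In lines 67 and 72, Msc and Tcf21 were thus at 0 or near the limit of 3 counts.

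Meox2, the homeobox factor of somites and limb muscle, was at 0.141, 0.388 and 0.139 TPM from 14, 35 and 13 counts on its single transcript. Line 67 was the highest here, 2.74-fold above line 66 (1.43 to 5.50) and 2.82-fold above line 72 (1.46 to 5.82) in CPM. Its paralog Meox1, named after its values were seen, was at 0.430, 0.243 and 0.397 TPM, so that Meox2 was the lower of the pair in lines 66 and 72 and the higher in line 67. In the order of mean levels, Meox2 (0.223 ± 0.143 TPM) and Msc (0.222 ± 0.169 TPM) overlapped, as did Tbx1 with Tbx4 and Tbx5 with Tcf21. Single lines weighed on these means, as Msc fell to 0.125 TPM without line 66, Meox2 to 0.140 TPM without line 67, Tbx1 from 4.02 to 2.62 TPM without line 72 and Tcf21 to 0 without line 72.

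The T-box family gives the frame for Tbx1, Tbx4 and Tbx5. Of its 17 genes, 5 were at 1 TPM or more in every line (Tbx15, Mga, Tbx18, Tbx3 and Tbx20), where 33.8% of all genes were. Tbx1 and Tbx4 reached a mean of 1 TPM without doing so. Tbx15, a factor of limb mesenchyme and of glycolytic muscle fibres, was the highest at 29.3, 39.1 and 41.4 TPM and held 39.4%, 52.7% and 45.2% of the TPM of the family. Tbx1 held 6.31%, 0.736% and 7.46%. Tbx15 exceeded Tbx1 by 6.23-fold and 6.06-fold in lines 66 and 72 and by 71.6-fold in line 67. Tbx22, a palate factor, was at 0 in every line.

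**Figure D5:**
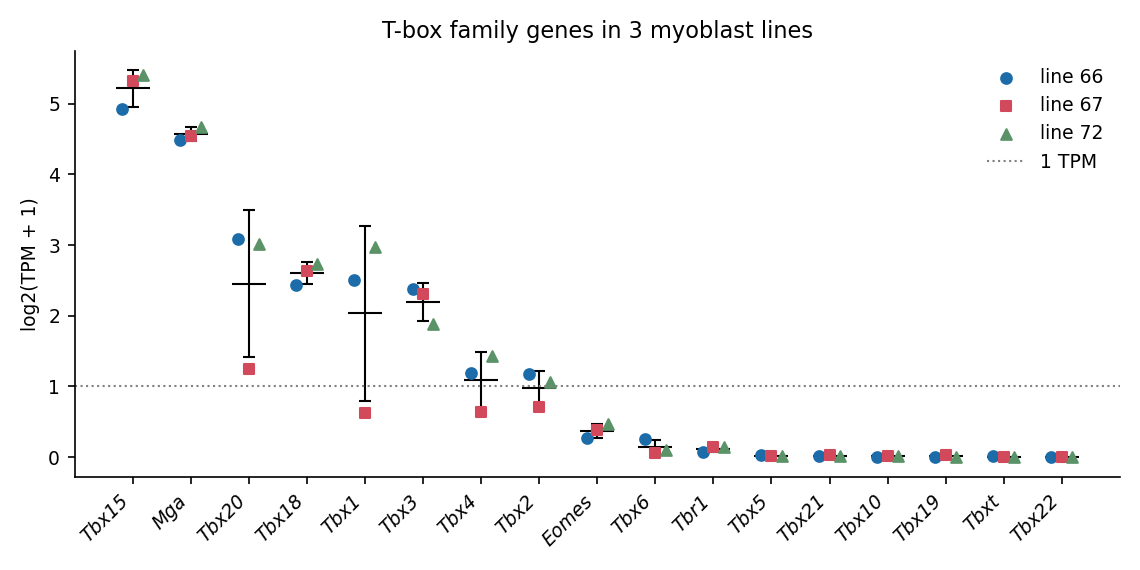
Level of each of the 17 T-box genes, as log2(TPM + 1), in lines 66 (circles), 67 (squares) and 72 (triangles), with the mean and SD in black and 1 TPM as a dotted line. Tbx15 and Mga are highest, and Tbx20 and Tbx1 show the widest spread, with line 67 lowest.

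The T-box genes of the limb lie in 2 linked pairs, Tbx2 with Tbx4 on chromosome 11 and Tbx3 with Tbx5 on chromosome 5. Tbx3, whose end lies 147944 bases from Tbx5, was at 4.20, 3.96 and 2.68 TPM beside the near absence of Tbx5. Tbx2, named after its values were seen, was at 1.25, 0.635 and 1.08 TPM, with line 67 lowest as for Tbx4. The nearest protein-coding genes on either side of the absent or low factors were mixed. The closer neighbours of Pitx1, Msc and Meox2 were below 1 TPM in every line, namely Catsper3 (16053 bases away, mean 0.0123 TPM), Trpa1 (116656 bases, 0.434 TPM) and Agmo (62107 bases, 0.183 TPM). On the farther side of Pitx1, 237427 bases away, H2afy was at 126, 101 and 101 TPM, and Tbpl1 and Eya4, on either side of Tcf21, had means of 51.5 and 34.1 TPM. Eya1, 443111 bases from Msc, had a mean of 14.4 TPM, and Ispd, 419037 bases from Meox2, 7.89 TPM. Beside Tbx1, Gnb1l was at 10.9, 11 and 9.25 TPM and was not low in line 67, and Gp1bb, on the other side, had a mean of 0.102 TPM. Beside Tbx4, Gm11444 had a mean of 0.0336 TPM and Brip1 7.35 TPM.

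Other genes of the same programs were counted in lists. For comparison with each count here and below, 33.8% of all genes were at 1 TPM or more in every line. Of the other trunk and limb progenitor genes, 4 of 6 were at 1 TPM or more in every line, namely Met (84.9 ± 22.5 TPM), the receptor that Lbx1+ cells need for migration, Cxcr4 (18.7 ± 3.86 TPM), Gab1 (3.91 ± 1.02 TPM) and Zic1. Zic1, a factor of dorsal somites, was at 13.0 TPM in line 66 against 1.82 and 2.84 in lines 67 and 72. Pax3, which lies upstream of Lbx1 and Met in the somite, was at 2.78, 0.708 and 1.47 TPM. Of the limb field genes, 7 of 12 were at 1 TPM or more in every line, led by Prrx1 (99.3 ± 29.8 TPM) and Prrx2 (93.1 ± 10.6 TPM), and Sall4 was at 0.

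Among the paralogs, Scx, the bHLH factor of tendon progenitors, was at 45.9, 44.2 and 44.6 TPM and was the single gene above 1 TPM among 6 bHLH genes (Msc, Tcf21 and 4 relatives). Tcf15, the paraxis gene of the somite, was at 0.

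A list of 6 genes that lie downstream of these factors or of other T-box factors held 5 at 1 TPM or more in every line. The share of all genes was 33.8%. Myod1 was at 791, 702 and 579 TPM, Myf5 at 97.2, 118 and 113 TPM and Myog at 168, 222 and 310 TPM. The other two were the cell cycle inhibitors Cdkn1a (438 ± 67.4 TPM) and Cdkn2a (154 ± 25.7 TPM), which are known as targets of Tbx2 and Tbx3 rather than of the 9 factors. The exception, Fgf10, named after its values were seen, is the limb bud target of Tbx4 and Tbx5 and was at 0.0605, 0.0599 and 0.0585 TPM. From the lowest to the highest line, Myod1 differed by 1.37-fold and Myf5 by 1.21-fold in TPM. A link between these levels and that of Tbx1 was not tested.

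The 8 myoblast markers listed were all at 1 TPM or more in every line, with Pax7 between 7.62-fold and 10.7-fold above Lbx1. As the cells were sorted by the Pax7-nGFP reporter, the level of Pax7 is no independent check of identity. Of 12 connective tissue markers, 7 were at 1 TPM or more in every line. Pdgfra, Col1a1 and Dcn were not, with means of 0.406, 0.202 and 0.0401 TPM, and Lum and Dpt were at 0. The summed level of the 12 markers was 227, 347 and 437 TPM in lines 66, 67 and 72, most of it Col3a1 (145, 205 and 270 TPM). Gsn (56.3, 93.5 and 104 TPM) and Col1a2 (7.47, 28.3 and 37.0 TPM) came next, so the sum rests on few genes. This sum was lowest in line 66, as was Pitx3, whereas Tbx1 and Tbx4 were lowest in line 67, and its part in these levels was not tested. Total estimated counts ranged from 66972426 to 73274315 per library.

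The protein-coding genes with levels most like each factor over the 3 lines were named by the smallest of the largest differences in log2(TPM + 1) among 21855 genes. For Pitx3 they were Vgll3 (35.4, 59.6 and 64.3 TPM, within 0.11) and Tspan12 (within 0.11). For Lbx1 they were S100a1 (within 0.04) and Snx8 (within 0.06). For Tbx4 they were Phf21b (within 0.11) and Pgpep1l (within 0.16). Tbx1 had no gene within 0.5, and the nearest were Shc2 (2.98, 0.955 and 4.44 TPM, within 0.52) and Arap3 (within 0.53). With 3 lines, likeness of level is a description of these libraries alone.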

How the data were processed

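RNA-seq libraries of 3 edited Dmdmdx; Pax7-nGFP myoblast lines were used, and the line was the replicate. Libraries were poly-A enriched and stranded. According to the submitters' processing notes, reads were handled with bcl2fastq 2.20, fastp 0.20 and kallisto 0.46.1 and build GRCm39. The annotation release and the strand setting are not given in the sources used here, so overlapping antisense genes may share reads. The authors deposited estimated counts per transcript, which are not normalized and need not be whole, as reads matching more than 1 transcript are shared out. The deposited TPM values are these counts per effective length, scaled to 1000000 in each library.

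Transcript identifiers were matched to GENCODE M21 (GRCm38), which gave symbols and coordinates. No coordinate was converted between builds. The 1112 of 121798 transcripts that found no match were dropped (0.493% to 0.535% of counts). Values were summed per gene (35562 genes). All 68 list genes were matched, 1 by an older symbol. A gene of the lists is not reported here. Levels are TPM or log2(TPM + 1), and differences between lines were called at over 2-fold among genes averaging 1 TPM or more. A count of 0 was given a fixed limit of 3 counts per library. Ratios carry 95% exact conditional intervals of the counts, rounded to whole numbers, which cover counting error only. Paralog pairs were compared by an exact sign-flip test across lines. The p-value of this test is 0.25 whenever all 3 lines share a sign, so it does not measure the spread between lines. The lines come from 1 iPSC clone. Transcript uniqueness was counted in 31-base words.

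The factors and gene lists were chosen with earlier results of these data known. The genes named are the 9 factors, list genes averaging 1 TPM or more or at 0, the nearest protein-coding neighbours, overlapping antisense genes, and the 2 genes nearest in level to each factor of that level. Fgf10, Tbx2 and Meox1 were named after their values were seen. Alternatives were a pseudocount of 0.1, CPM, TMM scaling (edgeR 4.0.16), size factors (DESeq2 1.42.0), protein-coding transcripts only, other thresholds, each line left out, and, chosen after seeing the data, all counts of a gene on its longest transcript. Scripts ran in R 4.3.3 and in Python 3.11.15 with scipy 1.17.1, pandas 2.3.3, numpy 2.4.6 and matplotlib 3.10.9.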

Additional observations from a re-analysis of the deposited data

How the results depend on the processing

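No paired analysis was possible because all 3 libraries belong to 1 group. The count of factors at 1 TPM or more in every line was 2, ranged from 2 to 4 with 1 line left out, with the 4 reached without line 67 (Tbx1 and Tbx4 were added), and was 4 at a threshold of 0.5 TPM. The count of factors called over 2-fold apart was 1, ranged from 0 to 1 with 1 line left out, with the 0 reached without line 67, was 2 with a pseudocount of 0.1, on CPM, with TMM scaling and with size factors of DESeq2 (Tbx4 was added each time), and was 0 with a filter at a mean of 10 TPM, which leaves Pitx3 and Lbx1. The largest number of genes called in a pair of lines was 273, ranged from 220 to 280 with 1 line left out, and was 498 with a pseudocount of 0.1, 110 with the filter at 10 TPM and 52 at a fold threshold of 4. The remaining settings kept these counts within 1.5 times. The direction of the mean difference of the 3 paralog pairs held in all 21 values under alternatives, although on CPM Msc lay below Tcf21 in line 72 (exact p = 0.5), between 4.97 and 9.07 for Pitx3 minus Pitx1, 0.89 and 3.38 for Tbx4 minus Tbx5 and 0.13 and 1.40 for Msc minus Tcf21 in log2 units. Mean levels of the 9 factors, taken as log2 of the value plus the pseudocount, moved by over 1 SD in 11 of 63 values. Of these, 6 were with the pseudocount of 0.1, 4 on CPM and 1 with all counts on the longest transcript. The TPM itself is the same under either pseudocount, and CPM is another unit. With 1 library per line, the spread between cultures of 1 line is unknown, and counts of 3 or fewer lie within the limit set for a count of 0.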
